A study of Mus musculus with 4 samples.

Results

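The genes that build and break down glycogen were followed in mouse liver, as 9 genes matched by name in the deposited table of 25655 genes. They are Gys2, Gyg, Gbe1, Ugp2, Pygl, Phka2, Ppp1r3b, Ppp1r3c and Ppp1r3g, and all 9 had reads and passed the filter on low counts. Liver RNA was sequenced from male mice of 2 genotypes, with 2 libraries of each. HFD-WT stands for ADAR2+/+/GluR-B R/R and HFD-KO for ADAR2-/-/GluR-B R/R, so both carried the edited GluR-B allele that rescues mice without ADAR2 from early death. All had eaten a high-fat diet (HFD) for 12 weeks from 5 weeks of age and were offspring of heterozygous parents on a B6129S background. The deletion is present in every tissue, so differences seen in liver need not arise in liver cells. Whether the mice were fasted and at what hour the livers were taken is not given for these libraries in the sources used here.

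Glycogen is the branched glucose polymer in which the liver stores sugar after a meal and from which it releases glucose between meals. UDP-glucose pyrophosphorylase (Ugp2) makes the activated sugar, glycogenin (Gyg) primes a new chain, liver glycogen synthase (Gys2) lengthens it and the branching enzyme (Gbe1) adds branches. Liver phosphorylase (Pygl) removes glucose units once phosphorylase kinase, whose liver alpha subunit is Phka2, has switched it on. Protein phosphatase 1 turns synthase on and phosphorylase off when a targeting subunit such as Ppp1r3b, Ppp1r3c or Ppp1r3g brings it to the particle. Much of this control runs through phosphorylation and allosteric binding, which counts of mRNA do not measure. The comparison asks whether the mRNA of the pathway differs between the genotypes on this diet.

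Libraries held between 24480798 and 28691330 counts, and 3 counts, taken as the smallest level a library could show, correspond to between 0.105 and 0.123 CPM (reads relative to the adjusted library total, counting error only). Adarb1, which encodes ADAR2, stood at 15.7 and 19.8 CPM in wild types and at 6.23 and 9.55 CPM in knockouts, so reads of the targeted gene remained (log2 fold change -1.17 ± 0.20, SE, adjusted p = 0.159 by edgeR and 3.1e-07 to 0.971 over the alternatives). Counts per gene do not show whether the deleted part was read. All 10 hepatocyte markers were present, with Alb between 52676 and 66104 CPM. They summed to 94771 and 97155 CPM in wild types and to 95143 and 119250 CPM in knockouts, so replicate 2 of HFD-KO was the highest. Summed CPM in wild types and then knockouts was 241 and 309 against 194 and 191 for 8 Kupffer cell markers, 348 and 387 against 304 and 224 for 7 stellate cell markers, and 219 and 241 against 212 and 233 for 7 endothelial markers. The 6 red cell genes summed to 758 and 601 CPM against 811 and 1147 CPM. Bile duct markers summed to 71.5 and 90.5 CPM against 59.5 and 50.04 CPM. Most of that sum was Spp1, at 64.3 and 83.9 CPM against 53.8 and 42.8 CPM, and the other 4 markers overlapped between the genotypes. The 6 skeletal muscle markers summed to between 0.456 and 1.48 CPM, with 5 of them at 0 reads in some library. None of these markers was at 0 in all 4 libraries.

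Per unit of transcript length, measured as the deposited TPM (reads relative to transcript length and library total), the 9 genes spanned a 175-fold range of mean level over the 4 libraries. Ugp2 stood highest with a mean of 253 TPM and a range from 208 to 287 TPM, and Pygl followed with 222 TPM (199 to 243). Those ranges overlapped, and Ugp2 was above Pygl in 3 of 4 libraries. Gys2 averaged 132 TPM (120 to 149) and Ppp1r3b 108 TPM (88.1 to 134), again with overlapping ranges although Gys2 was the higher in each library. Below them the ranges of neighbours did not overlap. Gbe1 averaged 61.6 TPM, Ppp1r3c 37.8 TPM, Phka2 9.77 TPM, Gyg 8.38 TPM and Ppp1r3g 1.45 TPM. The mRNA of the protein that primes a chain was thus 1 of the 3 scarcest.

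**Figure D1:**
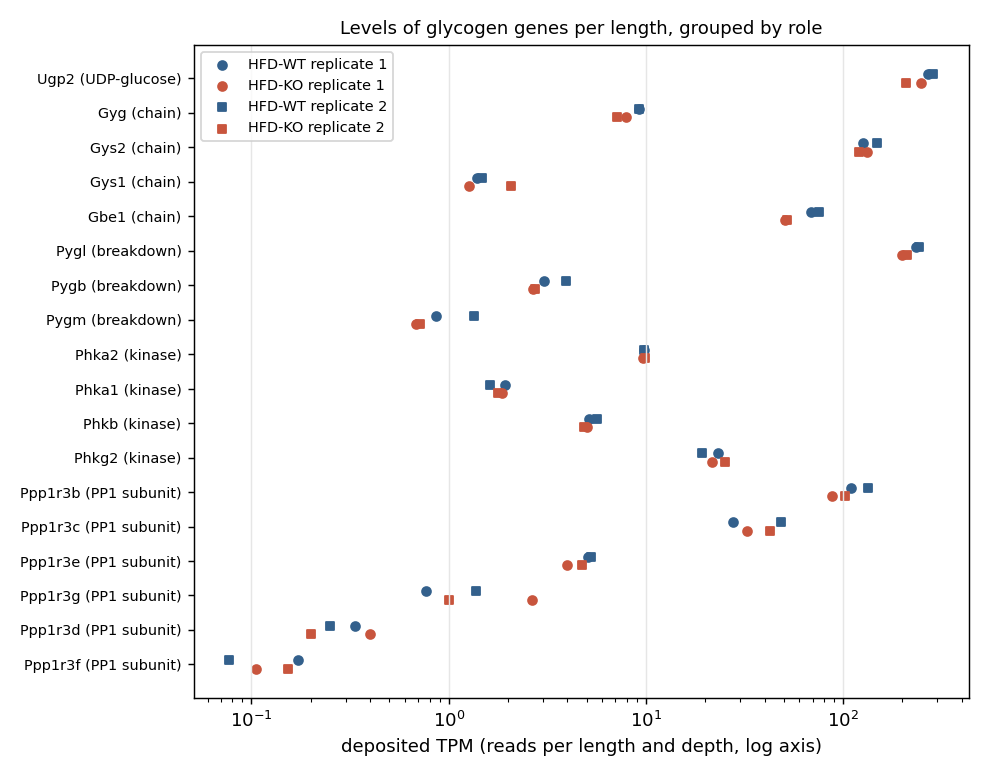
Deposited TPM of the glycogen genes and their partners in each library, on a log axis, with HFD-WT in blue, HFD-KO in red, circles for replicate 1 and squares for replicate 2. Ugp2, Pygl and Gys2 lie above 100 TPM in every library, while Ppp1r3g lies between 0.764 and 2.64 TPM.

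The liver isoforms dominated each enzyme family in all 4 libraries. Gys2 made up between 98.3% and 99.0% of the TPM of both glycogen synthase genes, the rest being the muscle gene Gys1. Pygl made up between 97.9% and 98.4% of the TPM of the 3 phosphorylase genes, with Pygb, the brain form, between 1.26% and 1.59% and Pygm, the muscle form, at 0.540% or less. Among the alpha subunits of phosphorylase kinase Phka2 held between 83.5% and 85.8%, and Phka1, the muscle form, held the rest. Among the 7 genes for targeting subunits, Ppp1r3b held 76.3% and 70.7% in wild types and 69.0% and 67.7% in knockouts. Ppp1r3c held 19.3% and 25.6% against 25.5% and 28.3%, so its share was the lowest in replicate 1 of HFD-WT. Ppp1r3e held between 2.77% and 3.55%, and Ppp1r3g 0.535% and 0.732% against 2.07% and 0.669%. How reads shared between similar genes were counted is not given in the sources used here.

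Between the genotypes, 0 of the 9 genes passed an adjusted p of 0.05 by edgeR's quasi-likelihood test, where 0.0771% of all 12967 genes tested did (0.054% higher and 0.0231% lower in knockouts). At an unadjusted p under 0.05, Gbe1 and Ppp1r3b were lower in knockouts and no member was higher, so 2 of 9 were called in either direction against 8.98% of all genes, of which 4.73% were lower and 4.25% higher. By DESeq2's Wald test 1 of the 9, Gbe1, had an adjusted p under 0.05, where 0.904% of all genes did. Both knockout libraries lay below both wild-type libraries for Gbe1, Ppp1r3b, Pygl, Ugp2 and Gyg, and above them for Phka2, while Gys2, Ppp1r3c and Ppp1r3g overlapped. Of all genes tested, 20.3% separated downward in this way and 20.5% upward. When libraries were scaled by their totals only, the split for all genes was 27.7% downward and 13.8% upward, 5 members still lay below and Phka2 overlapped. The median log2 fold change of the 9 genes was -0.15, beside 0.01 over all genes tested. In bulk liver, fewer cells of a type and less RNA per cell cannot be told apart.

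**Figure D2:**
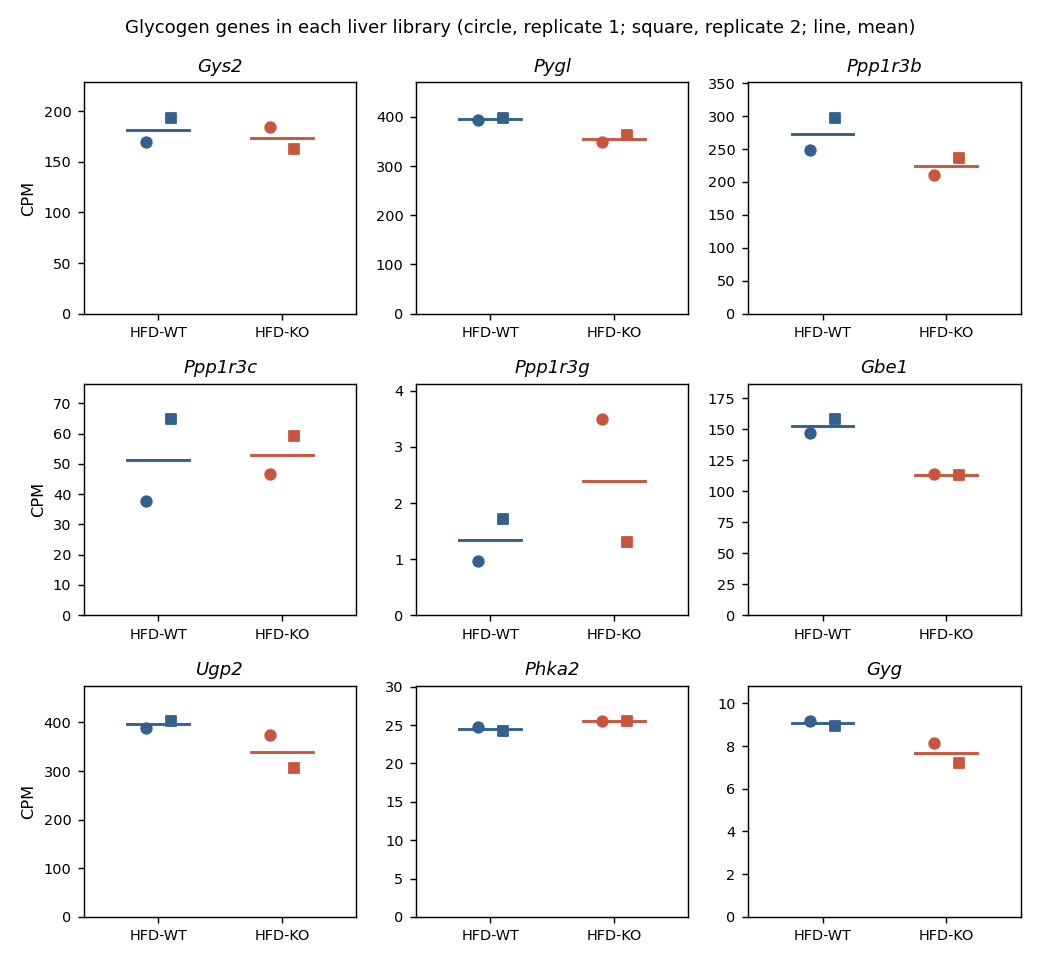
CPM of each glycogen gene in each library, on linear axes that start at 0, with HFD-WT in blue and HFD-KO in red, circles for replicate 1, squares for replicate 2 and a line at the group mean. The knockout libraries lie at 114 and 113 CPM for Gbe1 against 147 and 158 CPM in the wild types, while the groups overlap for Gys2, Ppp1r3c and Ppp1r3g.

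Gbe1, the branching enzyme, gave the lowest p of the 9. It is listed as ENSMUSG00000022707 on chromosome 16 from 70110837 to 70366604 (GRCm39, the build of all gene positions here). Wild-type libraries held 147 and 158 CPM, from 4256 and 4348 reads, and knockout libraries 114 and 113 CPM, from 2992 and 2706 reads. Both knockouts were thus lower, and they lay closer to each other than the wild types did. Group means were 153 ± 7.9 CPM (SD, n = 2) for HFD-WT and 113 ± 0.25 CPM for HFD-KO, and the fitted level in knockouts was 0.744 of that in wild types. On the log2 scale this was -0.43 ± 0.080 (SE), with a 95% interval from -0.61 to -0.24, an unadjusted p = 0.00096 and an adjusted p = 0.208 by edgeR. The estimate ranged from -0.48 to -0.37 under the 9 alternatives, while edgeR's adjusted p ran from 0.0056 without replicate 1 of HFD-KO to 0.9998 without replicate 2 of HFD-WT. DESeq2's adjusted p was 0.011, and edgeR with no filter on low counts gave an adjusted p = 0.042, where 0.936% of genes passed.

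The bases upstream of Gbe1 are shown because this gene had the lowest p of the 9. Those of Ppp1r3c are shown because its level varied most between HFD-WT libraries among the members above 10 CPM. Another reason is that its promoter holds an E-box, the letters that clock factors are known to bind. Whether the E-box bears on the level of Ppp1r3c was not tested. Both stretches come from RefSeq on GRCm38.p6, a build other than that of the table's positions. The Gbe1 stretch is the plus strand of chr16:70313699-70313948, from -250 to -1 of the start site, and the Ppp1r3c stretch is the minus strand of chr19:36736655-36736854, from -250 to -51. Capitals mark matches to CACGTG (E-box), TGACG (core of a cAMP response element) or CCAAT, searched on both strands, where an E-box and a TGACG match can share the letters TG.
Gbe1: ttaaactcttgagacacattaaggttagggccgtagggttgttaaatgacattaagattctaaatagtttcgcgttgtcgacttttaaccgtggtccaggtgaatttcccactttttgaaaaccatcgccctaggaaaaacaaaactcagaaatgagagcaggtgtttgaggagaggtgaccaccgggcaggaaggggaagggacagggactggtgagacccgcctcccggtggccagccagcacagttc
Ppp1r3c: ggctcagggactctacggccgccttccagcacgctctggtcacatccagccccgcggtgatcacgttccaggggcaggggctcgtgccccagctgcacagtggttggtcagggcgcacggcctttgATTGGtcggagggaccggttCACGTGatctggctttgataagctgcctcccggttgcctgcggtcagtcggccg
The Gbe1 stretch holds none of the 3 motifs. The Ppp1r3c stretch holds a CCAAT box on the opposite strand from -124 to -120 and an E-box from -104 to -99. RefSeq promoters were matched for 7 of the 9 genes, not for Gys2 and Ppp1r3b. Over the 250 bases upstream of a start site, the E-box was found in 1 of the 8 promoters of these 7 genes, TGACG in 2 of 8 (Ppp1r3g and Pygl) and CCAAT in 3 of 8 (Ppp1r3c, Ppp1r3g and Ugp2). The same motifs were found in 6.02%, 17.8% and 33.8% of all 32851 promoters.

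Of the other genes of synthesis, Ugp2 and Gyg had lower values in both knockout libraries without passing a threshold, and Gys2 overlapped. Ugp2, which makes UDP-glucose (ENSMUSG00000001891, chromosome 11 from 21271138 to 21321201), stood at 389 and 403 CPM in wild types and at 374 and 305 CPM in knockouts. The knockout libraries differed from each other by 1.23-fold, against 1.04-fold for the wild types. Its log2 fold change was -0.22 ± 0.11 (SE, 95% interval -0.48 to 0.04, edgeR adjusted p = 0.630). It rested mostly on replicate 2 of HFD-KO, without which it was -0.08, while leaving out replicate 1 of HFD-KO gave -0.38 (edgeR adjusted p = 0.014).

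Gyg, the primer of new chains (ENSMUSG00000019528, chromosome 3 from 20176248 to 20209481), stood at 9.19 and 8.94 CPM in wild types and at 8.17 and 7.20 CPM in knockouts, from between 172 and 266 reads a library. The groups were separate, with replicate 2 of HFD-KO the lowest. On the log2 scale the difference was -0.24 ± 0.13 (SE, 95% interval -0.54 to 0.07, edgeR adjusted p = 0.655).

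Gys2, the synthase itself (ENSMUSG00000030244, chromosome 6 from 142368339 to 142418835), stood at 169 and 194 CPM in wild types and at 184 and 163 CPM in knockouts. Replicate 1 of HFD-KO lay between the wild types and replicate 2 just below both. The fitted difference was -0.06 ± 0.10 on the log2 scale (SE, edgeR adjusted p = 0.892), with a 95% interval from -0.30 to 0.18. Its direction turned when replicate 2 of HFD-WT (0.04) or replicate 2 of HFD-KO (0.02) was left out.

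On the side of breakdown, Pygl, liver phosphorylase (ENSMUSG00000021069, chromosome 12 from 70237585 to 70278262), stood at 394 and 398 CPM in wild types and at 349 and 362 CPM in knockouts. Both pairs were tight, at 1.01-fold and 1.04-fold between replicates, and did not overlap. The fitted difference was -0.15 ± 0.082 on the log2 scale (SE, 95% interval -0.35 to 0.04, edgeR adjusted p = 0.639), and the 9 alternatives placed it between -0.20 and -0.13.

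Phka2, the regulatory alpha subunit of phosphorylase kinase in liver (ENSMUSG00000031295, chromosome X from 159285162 to 159381874), stood at 24.7 and 24.2 CPM in wild types and at 25.6 and 25.5 CPM in knockouts. Its replicates differed by 1.02-fold or less in both genotypes. On the log2 scale the difference was 0.06 ± 0.079 (SE, 95% interval -0.12 to 0.25, edgeR adjusted p = 0.856), and the small separation of the groups was lost when only library totals were used for scaling.

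The balance of synthase and phosphorylase mRNA was read as the ratio of Gys2 to Pygl within each library, per length, which does not depend on how libraries are scaled. It was 0.540 and 0.612 in wild types and 0.663 and 0.567 in knockouts, so phosphorylase mRNA was the more abundant in each library and the groups overlapped. The mean log2 ratio was 0.09 higher in knockouts (exact two-sided permutation p = 0.667, n = 2 per group), and 2 libraries against 2 cannot give a p below 0.333. This difference ran from -0.02 without replicate 1 of HFD-KO to 0.21 without replicate 2 of HFD-KO.

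The 3 targeting subunits of protein phosphatase 1 gave estimates of both signs. Ppp1r3b, the main subunit of liver (ENSMUSG00000046794, chromosome 8 from 35842893 to 35855293), stood at 249 and 298 CPM in wild types and at 210 and 237 CPM in knockouts. Both knockouts lay below both wild types, with replicate 2 the higher of each pair. The fitted level in knockouts was 0.818 of that in wild types, or -0.29 ± 0.11 on the log2 scale (SE, 95% interval -0.55 to -0.03, edgeR unadjusted p = 0.036 and adjusted p = 0.511). It ran from -0.42 without replicate 1 of HFD-WT to -0.15 without replicate 2 of HFD-WT, and edgeR's adjusted p was 0.040 without replicate 2 of HFD-KO.

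Ppp1r3c, also called PTG (ENSMUSG00000067279, chromosome 19 from 36709131 to 36714053), stood at 37.7 and 64.7 CPM in wild types and at 46.5 and 59.3 CPM in knockouts. Replicate 2 was the higher in each genotype, and the knockout values lay inside the wild-type range. Replicates differed by 1.72-fold in HFD-WT and 1.27-fold in HFD-KO, where the median gene tested differed by 1.09-fold and 1.11-fold. The fitted difference was 0.05 ± 0.23 on the log2 scale (SE, edgeR adjusted p = 0.973), with a wide 95% interval from -0.50 to 0.60. Without replicate 1 of HFD-WT it was -0.30, and without replicate 2 of HFD-WT it was 0.49.

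Ppp1r3g (ENSMUSG00000050423, chromosome 13 from 36142822 to 36154371) was counted 28 and 47 times in wild types and 92 and 31 times in knockouts. These are 0.967 and 1.71 CPM against 3.49 and 1.30 CPM, so replicate 1 of HFD-KO stood alone and replicate 2 lay inside the wild-type range. The log2 estimate of 0.85 ± 0.49 (SE, 95% interval -0.30 to 2.01, edgeR adjusted p = 0.668) became -0.04 without replicate 1 of HFD-KO and 1.39 without replicate 2 of HFD-KO (edgeR adjusted p = 0.015).

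**Figure D3:**
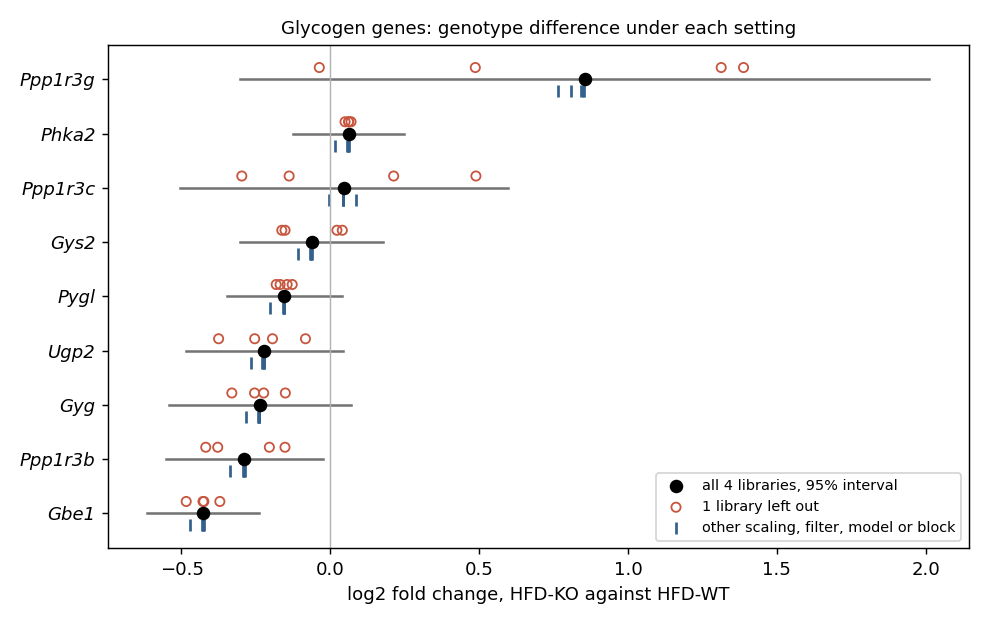
Log2 ratio of knockout to wild-type level for each glycogen gene, with the estimate from all 4 libraries as a black point and its 95% interval as a bar, estimates with 1 library left out as open red circles, and those under another scaling, filter, model or block as blue ticks. Gbe1 lies between -0.48 and -0.37 under every alternative, while Ppp1r3g ranges from -0.04 to 1.39 and Ppp1r3c from -0.30 to 0.49.

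Among 22 further genes of glycogen metabolism 19 were tested, of which 0 passed an adjusted p of 0.05 by edgeR or by DESeq2. At an unadjusted p under 0.05 by edgeR 1 was lower, Pgm2, a phosphoglucomutase (5.70 and 7.23 CPM against 4.48 and 4.98 CPM), and none was higher. Of all genes tested, 4.73% were lower and 4.25% higher at this threshold. The median log2 fold change of the 19 genes was 0.00, with 10 above 0 and 9 below. Gys1 overlapped, at 2.66 and 2.76 CPM against 2.55 and 4.02 CPM. Pygb was separate, at 5.97 and 7.56 CPM against 5.47 and 5.44 CPM, as was Pygm, with 36 and 52 reads against 27 and 25 reads (edgeR adjusted p = 0.657 and 0.668).

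The other tested subunits of phosphorylase kinase overlapped between the genotypes. On the log2 scale Phkb, the beta subunit, differed by -0.07 ± 0.091 (SE), Phka1 by 0.10 ± 0.17 and Phkg2, the catalytic subunit of liver, by 0.20 ± 0.12. Phkg1, the muscle catalytic subunit, had 1 or 2 reads a library and Ppp1r3a, the muscle targeting subunit, between 0 and 2 reads, so both were under the 3 counts set as the floor. Ppp1r3f, with between 5 and 12 reads a library, was not tested. Ppp1r3e stood at 5.59 and 5.63 CPM in wild types and at 4.56 and 5.32 CPM in knockouts, and Ppp1r3d at between 0.335 and 0.684 CPM. Gsk3a and Gsk3b, the kinases that phosphorylate and inhibit glycogen synthase, differed by 0.05 ± 0.086 and 0.00 ± 0.094 on the log2 scale (SE). The level of GSK3 mRNA does not show the phosphorylation of the protein.

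**Figure D4:**
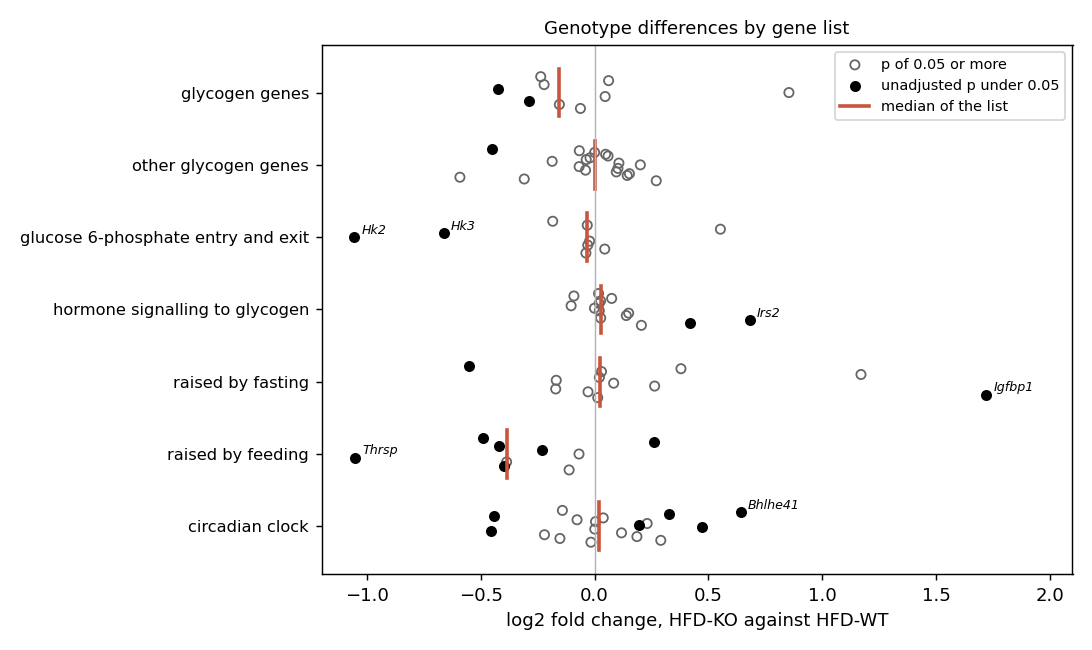
Log2 ratio of knockout to wild-type level for every tested gene of 7 lists, filled where the unadjusted p is under 0.05, with the median of each list as a red line. The medians are -0.15 for the glycogen genes, 0.00 for the other glycogen genes and -0.39 for genes raised by feeding, and Hk2 and Hk3 are the filled points among the genes of glucose 6-phosphate entry and exit.

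Glucose 6-phosphate links glycogen to blood glucose. Of 9 genes for its entry and exit 2 were lower at an unadjusted p under 0.05 and none higher, with a median log2 fold change of -0.03. Of all genes tested, 4.73% were lower and 4.25% higher at this threshold. Hk2, a hexokinase of muscle and fat, was at 7.67 and 8.07 CPM against 3.99 and 3.56 CPM (adjusted p = 0.112 by edgeR and 0.010 by DESeq2). Hk3, a hexokinase of white blood cells, was at 3.97 and 6.29 CPM against 2.96 and 3.52 CPM (edgeR adjusted p = 0.515). G6pc, the phosphatase that frees glucose, overlapped, at 170 and 255 CPM against 378 and 245 CPM. Its log2 fold change was 0.55 ± 0.24 (SE, edgeR unadjusted p = 0.0503 and adjusted p = 0.556). The estimate was 0.21 without replicate 1 of HFD-KO and 0.83 without replicate 2 of HFD-KO.

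Of 14 genes of hormone signalling to glycogen, Irs1 and Irs2 had an unadjusted p under 0.05. Both were higher, where 4.25% of all genes tested were higher and 4.73% lower. Irs2, an adaptor of the insulin receptor, stood at 14.3 and 15.2 CPM in wild types and at 21.8 and 25.5 CPM in knockouts (adjusted p = 0.115 by edgeR and 0.012 by DESeq2). Its partner Irs1 was higher by 0.42 on the log2 scale (edgeR adjusted p = 0.383). The median of the list was 0.03.

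Glycogen genes are known to follow meals and the hour of the day, so lists for both were read beside them, at an unadjusted p under 0.05. At that threshold by edgeR, 4.73% of all genes tested were lower and 4.25% higher. In the fasting, feeding and clock lists 0 genes passed an adjusted p of 0.05 by edgeR. Of 12 genes raised by fasting, Igfbp1 was higher (48.3 and 68.9 CPM against 93.6 and 293 CPM) and Sds lower, and the median log2 fold change of the list was 0.03. Of 9 tested genes raised by feeding, Acaca, Elovl6, Fasn, Pklr and Thrsp were lower and Mlxipl was higher, with a median of -0.39. Acaca and Fasn are also genes of fat synthesis, and the paper reports lower ACC and FAS protein in HFD-KO than in HFD-WT livers. Of 18 clock genes, Bhlhe40, Bhlhe41, Nr1d1 and Nr1d2 were higher and Ciart and Cry1 were lower, with a median of 0.02. Hepatocyte markers had a median of 0.15, with 8 above 0 and 2 below. Kupffer cell markers had a median of -0.48, stellate cell markers of -0.43, bile duct markers of -0.18, endothelial markers of 0.01 and red cell genes of 0.48. At an unadjusted p under 0.05 by edgeR, Adgre1, Cd5l, Clec4f, Csf1r and Vsig4 of 8 Kupffer cell markers were lower. So were Col1a1, Col3a1, Dcn and Reln of 7 stellate, Lyve1 of 7 endothelial and Spp1 of 5 bile duct markers. Serpina1c of 10 hepatocyte markers and Hba-a1, Hba-a2 and Hbb-bs of 6 red cell genes were higher. By DESeq2's Wald test 0.904% of all genes passed an adjusted p of 0.05. Of the fasting, feeding and clock lists, Thrsp (6.1e-10), which promotes fat synthesis, and the clock repressor Nr1d1 (0.035) passed. Of the marker lists, DESeq2 called Cd5l and Vsig4 (Kupffer), Col1a1 and Reln (stellate), Lyve1 (endothelial) and Spp1 (bile duct) lower and Serpina1c (hepatocyte) higher, with adjusted p between 0.0024 and 0.035. The part of meals, hour or cell makeup in the Gbe1 and Ppp1r3b values was not tested.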

How the data were processed

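Liver RNA of 2 HFD-WT and 2 HFD-KO libraries was analysed, with groups and replicate numbers from the sample labels. The authors used a directional library kit and a DNBSEQ-G400RS sequencer (both MGI Tech), checked and trimmed the read pairs with the MGI tool, aligned them and quantified genes of GENCODE in Partek. The aligner, versions, strand use and the handling of multiply aligned reads are not given in the sources used here. The methods name mm10, but positions in the deposited table follow GRCm39.

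The deposited counts, whole and not normalized, were the values tested. The deposited TPM values, scaled by the authors for length and depth, served to compare levels between genes, and the deposited RPKM values gave gene lengths. A CPM column of the authors, a score not summing to plain CPM, was left aside, and all CPM here use the counts with TMM-adjusted library sizes.

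Genes were kept by filterByExpr and tested with edgeR 4.0.16 in R 4.3.3 (two-sided quasi-likelihood test), and p-values were adjusted by Benjamini-Hochberg over all 12967 genes tested (common biological coefficient of variation 0.102, prior degrees of freedom 5.34). A standard error (SE) is the log2 fold change over the root of the F statistic, and 95% intervals take the t distribution on the model's degrees of freedom. Alternatives were the Wald test of DESeq2 1.42.0, other scalings, no filter, each library left out and a replicate block. A ratio within libraries was tested by exact permutation in scipy 1.17.1. The edgeR fit was first checked on simulated counts.

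Within groups, libraries varied beyond counting error (chi-square over degrees of freedom 8.80 in HFD-WT, 34.1 in HFD-KO). A caption of the study gives 6 mice per group for the analysis of these livers, but how they map to 2 libraries per group is not given in the sources used here, so p-values measure the spread between these libraries, which may be technical.

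The glycogen genes and all lists were chosen with earlier results of these data known. Every glycogen gene is given in each library. From other lists the text names genes with an unadjusted p under 0.05, partner isoforms and subunits, Gsk3a, Gsk3b and G6pc. Some genes of these lists are not reported here and are left out of the list counts. Lists for hepatocytes, Kupffer, endothelial, stellate and bile duct cells, skeletal muscle and blood served to check the tissue. Promoters came from RefSeq on GRCm38.p6.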

Additional observations from a re-analysis of the deposited data

How the results depend on the processing

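At an adjusted p under 0.05 over all genes, 7 genes were higher and 3 lower in knockouts by edgeR. The counts were 4 higher with the library size alone, 81 higher and 81 lower with no filter on low counts, and 56 higher and 61 lower by DESeq2's Wald test. Leaving out each library in turn gave between 0 (without replicate 2 of HFD-WT) and 376 (without replicate 1 of HFD-KO) higher and between 0 and 329 lower in the same cases, and 226 higher and 185 lower without replicate 2 of HFD-KO, the lone library being assumed to vary like the other group. At an unadjusted p under 0.05 the split was 551 higher and 613 lower with TMM and 346 higher and 894 lower with the library size alone. Of the glycogen genes, 0 were higher and 2 lower with TMM, and 0 were higher and 3 lower with the library size alone. The number of glycogen genes at an unadjusted p under 0.05 was between 0 and 1 higher and between 1 and 2 lower with 1 library left out. The cause of these shifts was not tested. The replicate numbers were not taken as pairs, since nothing in the sources used here says that they pair mice. Deviations of same-numbered libraries from their group means had a correlation of r = -0.086 across 11759 genes. With a replicate block 12 genes were higher and 8 lower, and 2 glycogen genes were still lower at an unadjusted p under 0.05. Of 81 estimates for the 9 glycogen genes under the alternatives, 68 kept direction and side of the adjusted threshold, 7 passed it and 6 changed direction. With 1 library left out Gys2 ran from -0.16 to 0.040, Ppp1r3c from -0.30 to 0.49 and Ppp1r3g from -0.037 to 1.39, which holds 5 of the 6 turns, and with the library size alone Ppp1r3c was -0.0035. The Gys2 to Pygl difference was between -0.02 and 0.21 with 1 library left out. Depth was lowest for Ppp1r3g, with 28 to 92 reads a library.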
